A study of Drosophila melanogaster with 9 samples.

Results

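Ovarian somatic cells (OSCs) are a cultured Drosophila melanogaster line derived from the somatic, follicle-type cells of the ovary, and the RNA described here came from their control state. The 2 libraries, siGFP polyA replicates 1 and 2, were the only samples that combined the GFP siRNA with selection of polyadenylated RNA. They were 2 of 9 samples in the series and 2 of 6 polyA samples. The remaining samples carried siRNAs against Acn or tsu, or came from rRNA-depleted RNA, and were not used here. The cells were grown at 27 degrees and received the siRNA by Nucleofector transfection. GFP has no counterpart in the fly genome, so this siRNA has no intended target, but the cells had gone through transfection and were not untreated. OSCs are 1 cell line in culture, without the germline cells that somatic cells touch in an ovary. The RNA was bound to oligo(dT) beads and sequenced as strand-specific libraries. With 1 group of 2 libraries there is no contrast to test, so everything below is a description, and the error is the spread between these libraries.

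Somatic cells of the fly ovary silence transposable elements with a compact form of the piRNA pathway. In it, long precursor transcripts are cut into piRNAs around the cytoplasmic Yb body, loaded onto the Argonaute protein Piwi and carried into the nucleus, where Piwi directs transcriptional silencing. Germline cells add a cytoplasmic cycle run by Aubergine and AGO3, which somatic cells lack. Traffic jam (tj), a large Maf transcription factor, marks somatic gonad cells and Fasciclin 3 (Fas3) is a lateral adhesion protein of early follicle cells.

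Most marker genes chosen for the label were expressed. They were chosen with earlier results of these data known, and piwi and armi also act in germline cells, so they are no independent check of it. piwi had 612 and 447 RPKM (reads per kilobase of transcript per M mapped reads) in replicates 1 and 2, a mean of 530 ± 116 (SD, n = 2), and ranked 137 among 8335 genes. The helicase gene armi had 490 and 374 RPKM (432 ± 81.6). tj had 442 and 401 RPKM (421 ± 29.1), and Fas3 had 71.9 and 76.4 RPKM (74.1 ± 3.24). The zinc finger and homeodomain factor gene zfh1 (183 and 191 RPKM) and the Hedgehog receptor gene ptc (114 and 109 RPKM) were of a similar order, and eya, a follicle cell fate regulator, had 22.4 and 17.1 RPKM. Of the 9 somatic markers, cas (0.382 and 0.281 RPKM), a factor of polar and stalk cell precursors, and ct (0.888 and 1.10 RPKM), a homeodomain factor of follicle cells, did not reach 10 RPKM. For scale, 65.8% of all genes exceeded 10 RPKM in both libraries and 11.8% lay below 1 RPKM in both.

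Short sets of defining markers of other cell types were mostly near 0 or had no value in the gene table, with exceptions. Of 7 germline markers, 5 had a value, none reached 10 RPKM, and they summed to 6.27 and 5.88 RPKM. nos and osk were the others, and a gene without a value was not analysed here. No fat body marker of 5 had a value, and 2 of 5 muscle markers did, with a sum of 5.62 and 4.76 RPKM. Of 7 hemocyte markers only the scavenger receptor gene crq exceeded 10 RPKM (35.2 and 31.0 RPKM), while Hml, the hemolectin gene that defines plasmatocytes, had 0.0236 and 0.0112 RPKM. The neuronal RNA-binding protein gene elav had 17.6 and 22.5 RPKM, beside 0.356 and 0.555 RPKM for the synaptic gene nSyb. The gene of the zinc finger factor esg, used here as a gut progenitor marker, had 85.5 and 86.7 RPKM, beside 0.0409 and 0.0781 RPKM for pros. Longer lists of such genes, read against the 65.8% of all genes above 10 RPKM in both libraries, held more that were present. Of those with a value, 3 of 4 fat body genes exceeded 10 RPKM in both libraries, among them ppl, a glycine cleavage gene (54.2 and 61.7 RPKM), and the lipid droplet gene Lsd-1 (22.5 and 11.1 RPKM). In the gut list 3 of 5 did, with the myosin genes Myo31DF (26.1 and 29.1 RPKM) and Myo61F (15.7 and 13.2 RPKM) beside esg. In the neuron and glia list 3 of 9 did, with the sodium pump subunit gene nrv2 (28.7 and 28.2 RPKM) and the blood-brain barrier receptor gene moody (34.0 and 21.8 RPKM) beside elav. No muscle gene of 9 did. In bulk RNA, a few cells of another type and low expression in all cells cannot be told apart.

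The most abundant transcripts encoded the translation apparatus. Ef1alpha48D, the main translation elongation factor 1 alpha, ranked first by mean with 5456 and 5282 RPKM (5369 ± 123). Of the 30 highest genes, 27 encoded ribosomal proteins. RpL41, the smallest protein of the large subunit, had 5698 and 3692 RPKM, RpLP2 had 4364 and 2922, and RpL27A had 3909 and 2315. Across 85 ribosomal protein genes the median was 1867 and 1176 RPKM, and 72 had a mean above 1000 RPKM. Together they took 29.9% and 23.2% of the summed RPKM of all genes (26.6 ± 4.78%).

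A few ribosomal protein paralogs stood far below that median. RpS10a had 0.517 and 0.764 RPKM, RpS19b had 11.6 and 7.61 RPKM, RpS15Ab had 59.7 and 36.1 RPKM and RpS5b had 138 and 92.3 RPKM. These are duplicate copies of genes whose main copies are expressed in most tissues. How reads that fit both copies of a pair were counted is not clear from the sources used here, so levels of paralogs are uncertain.

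Other transcripts above 1000 RPKM encoded translation factors, cytoskeletal, chromatin and folding proteins, among others. The cytoplasmic actin gene Act5C (2371 and 2529 RPKM) and Df31 (2065 and 2715 RPKM), which encodes a histone-binding chromatin protein, completed the highest 30. The HMG-box chromatin protein gene HmgD followed with 1467 and 2043 RPKM. Chaperone Hsc70-4 had 1457 and 1585 RPKM and elongation factor EF2 had 1396 and 1773 RPKM, and eIF-5A had 1694 and 1364 RPKM. Profilin (chic, 1221 and 1786 RPKM), cofilin (tsr, 1396 and 1364 RPKM), betaTub56D (1370 and 1480 RPKM) and 14-3-3epsilon (1240 and 1752 RPKM) were also above 1000 RPKM in each library. Sirup, which encodes an assembly factor of mitochondrial succinate dehydrogenase, had 2588 RPKM in replicate 1 and 840 RPKM in replicate 2, so its rank rests on 1 library. No single transcript dominated, since the highest gene took 1.05% and 1.11% of the summed RPKM, the highest 10 took 7.20% and 6.55%, and the highest 100 took 36.4% and 31.1%. The median gene had 20.6 and 19.4 RPKM.

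The libraries agreed closely but not evenly. Across 8335 genes, log2 RPKM values of the libraries had a Pearson r of 0.981, which is across genes and not across independent samples. Of 5683 genes with a mean above 10 RPKM, 120 (2.11%) differed by more than 2-fold, and 100 of these were higher in replicate 1. The ratio followed transcript length. The median log2 ratio of replicate 1 to replicate 2 was 0.65 for transcripts up to 500 nt (n = 88) and 0.34 for 500 to 1000 nt, and it was -0.17 above 5000 nt (n = 458). Ribosomal protein genes, most of them short, were higher in replicate 1 for 80 of 83 genes with a median log2 ratio of 0.58. The part of transcript length in any level difference between the libraries was not tested. Away from that trend, the synaptic capsid gene Arc1 had 191 RPKM in replicate 1 and 603 RPKM in replicate 2, and the juvenile hormone epoxide hydrolase gene Jheh1 had 104 and 33.1 RPKM.

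**Figure D1:**
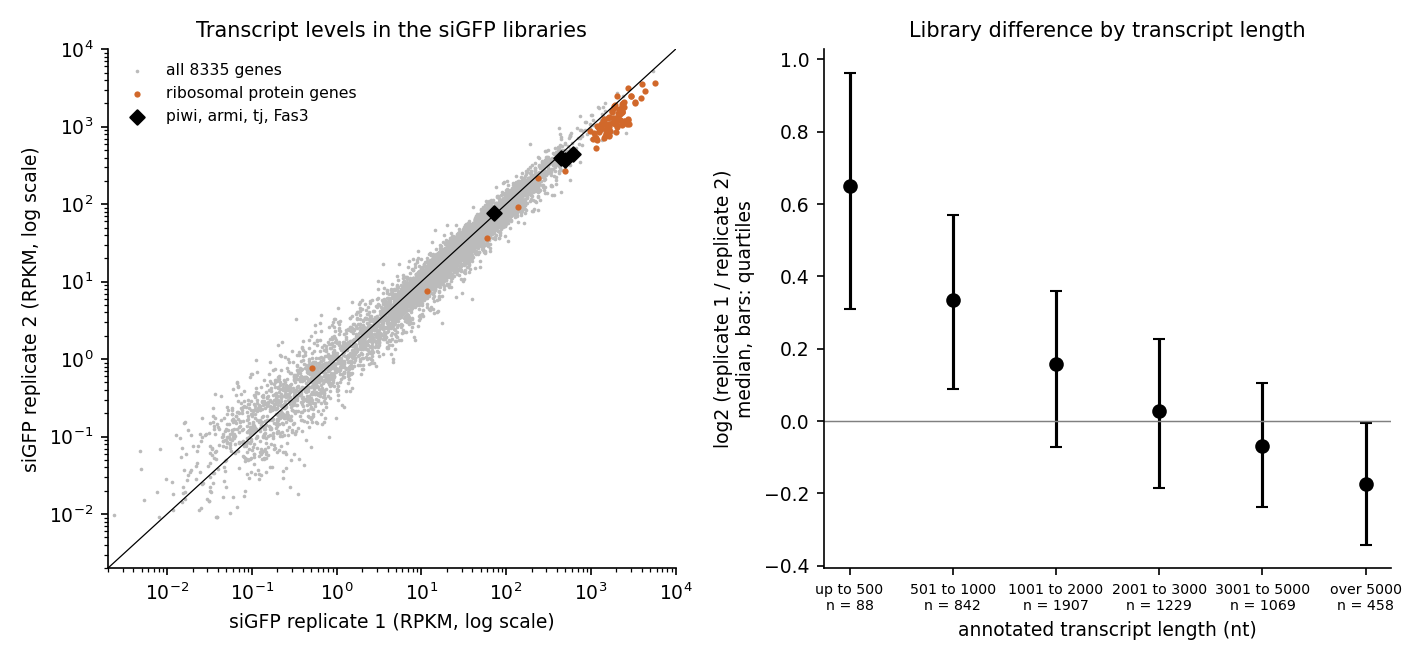
Left, RPKM of each gene in siGFP replicate 1 (x axis) against replicate 2 (y axis), both on log scales, with ribosomal protein genes and the markers piwi, armi, tj and Fas3 marked. Right, the log2 ratio of replicate 1 to replicate 2 by annotated transcript length for genes above 10 RPKM, where the median goes down from 0.65 at up to 500 nt to -0.17 above 5000 nt.

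The somatic piRNA pathway was expressed almost in full. Of 22 listed factors, all had a value and 21 exceeded 10 RPKM in both libraries, against 65.8% of all genes. The list was led by the chaperone gene Hsp83 (873 and 1149 RPKM), which has many other clients, followed by piwi and armi. The chromatin remodeller gene Mi-2 had 124 and 158 RPKM. shu, which encodes a co-chaperone for Piwi loading, had 148 and 97.3 RPKM, and mael, which acts in Piwi-dependent silencing, had 71.5 and 84.2 RPKM. fs(1)Yb, which encodes the core protein of Yb bodies, had 81.1 and 54.8 RPKM, and its relative SoYb had 42.2 and 36.9 RPKM. The nuclease gene zuc, whose product makes piRNA ends, had 18.4 and 14.9 RPKM, and the mitochondrial partners Gasz (24.2 and 17.9 RPKM) and mino (23.8 and 20.8 RPKM) were at a like level. Of the nuclear silencing factors, nxf2 had 41.0 and 34.6 RPKM, arx (asterix) had 15.8 and 15.4 RPKM and the H3K9 methyltransferase gene egg had 49.3 and 42.7 RPKM. The gene of heterochromatin protein HP1a was next below armi at 415 and 433 RPKM. The only member under 10 RPKM was Hen1, the piRNA methyltransferase gene, with 5.561 and 6.011 RPKM.

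Germline genes covered a wide range. Of 26 with a value in a list of 32, 11 exceeded 10 RPKM in both libraries, or 42.3%, against 65.8% of all genes. Another 6 lay below 1 RPKM in both and 9 lay between. Among the latter was cuff (6.78 and 8.90 RPKM), which encodes a partner of Rhino. The core of the germline cycle was low, with 0.444 and 0.433 RPKM for aub, 2.46 and 2.33 RPKM for AGO3, 0.920 and 1.18 RPKM for the helicase gene vas and 2.41 and 1.76 RPKM for rhi, which encodes the HP1 relative bound at germline piRNA clusters. bam (0.0367 and 0.174 RPKM), ovo (0.0489 and 0.0484 RPKM) and orb (0.132 and 0.330 RPKM), regulators of germ cell differentiation and the oocyte, were lower still. Yet spn-E (128 and 98.2 RPKM), krimp (86.4 and 74.1 RPKM) and tud (43.2 and 56.3 RPKM), which encode Tudor-domain proteins of the germline nuage, were well above the median gene. del (78.1 and 74.4 RPKM), whose product works with Rhino in the germline, and pgc (63.77 and 40.05 RPKM), a repressor of transcription in primordial germ cells, were too.

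Among somatic ovary genes, 11 of 19 with a value (57.9%, against 65.8% of all genes) exceeded 10 RPKM in both libraries, again with clear gaps. Besides tj, zfh1, ptc, Fas3 and eya, the group held chinmo (106 and 96.4 RPKM), a target of JAK-STAT signalling, Wnt4 (83.9 and 95.7 RPKM), the follicle patterning factor gene mirr (67.1 and 84.6 RPKM) and bab2 (39.0 and 37.0 RPKM). Its relative bab1 had 0.534 and 0.748 RPKM. Genes of later or specialised follicle cells were low, namely slbo of border cells (0.615 and 0.891 RPKM), lz (0.106 and 0.0603 RPKM) and peb (0.0351 and 0.0337 RPKM). No late follicle cell product of the 10 with a value, in a list of 29 that holds yolk, vitelline membrane and chorion genes, reached 10 RPKM, and 8 lay below 1 RPKM in both. The vitelline membrane gene Vm26Aa had 0.604 and 0.765 RPKM and the chorion gene Cp18 had 0.909 and 1.22 RPKM.

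**Figure D2:**
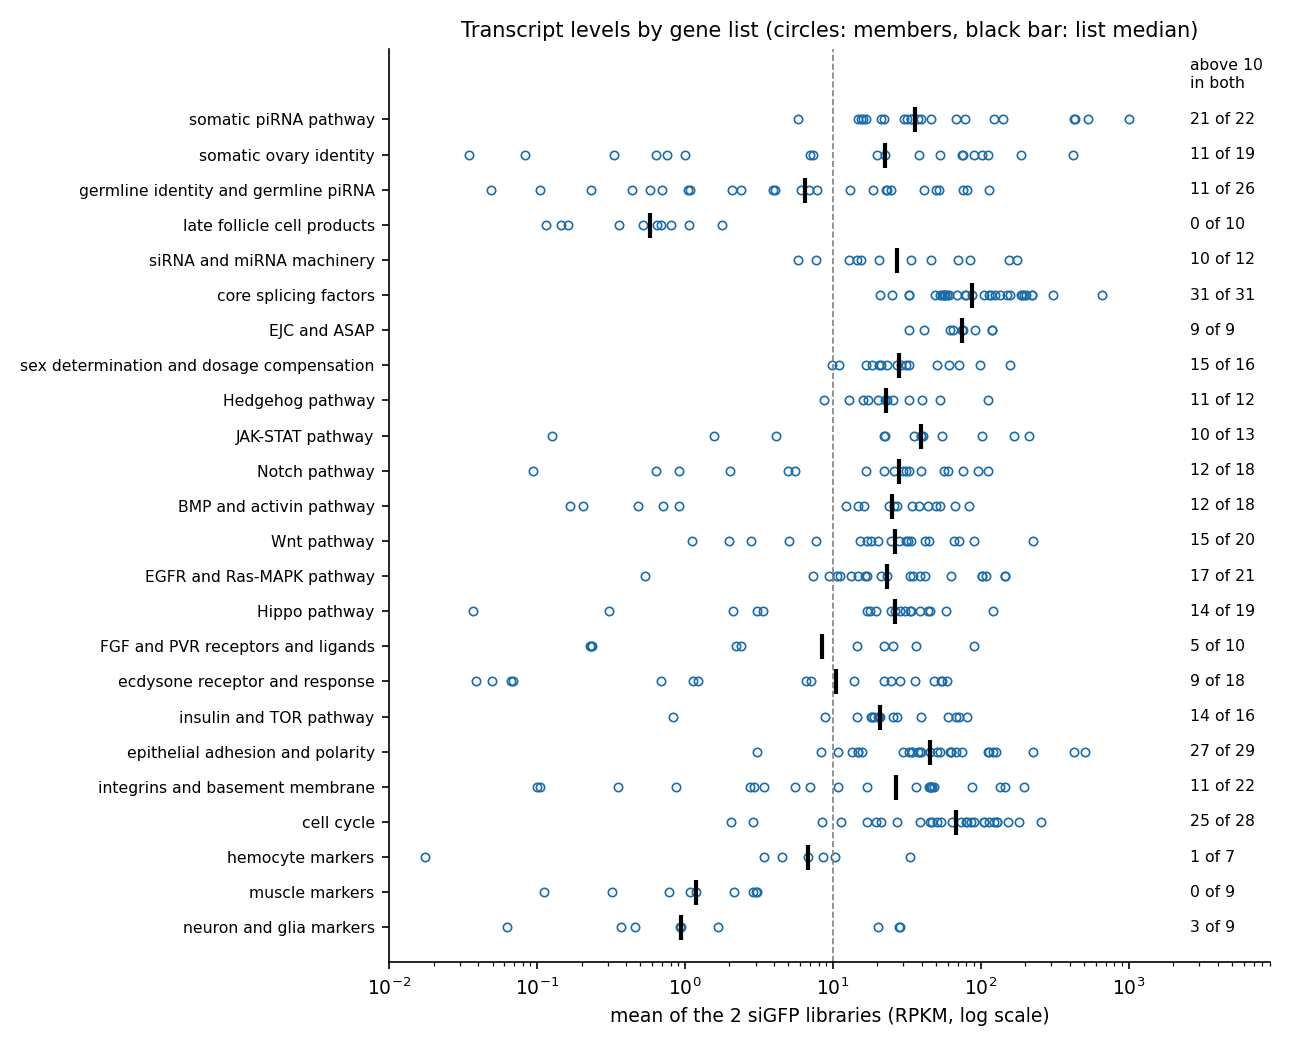
Mean RPKM of the 2 siGFP libraries (x axis, log scale) for each listed gene with a value, 1 line of points per list, with the dashed line at 10 RPKM and, at the right, how many members exceeded it in both libraries. Core splicing factors (31 of 31) and somatic piRNA factors (21 of 22) lie almost wholly right of the line, and late follicle cell products (0 of 10) wholly left of it.

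The RNA processing machinery that the series was built to study was present throughout. All 31 core splicing factors and all 9 members of the exon junction complex (EJC) and ASAP lists exceeded 10 RPKM in both libraries. So did all 6 nonsense-mediated decay factors, against 65.8% of all genes. The EJC marks spliced junctions on mRNA. Of its core, tsu had 128 and 112 RPKM, mago had 74.7 and 50.1 RPKM, eIF4AIII had 113 and 70.2 RPKM and btz had 37.7 and 44.5 RPKM. Of the accessory factors, Acn had 98.1 and 140 RPKM and RnpS1 had 61.5 and 67.9 RPKM. The hnRNP genes Hrb27C (562 and 766 RPKM) and sqd (262 and 357 RPKM) led the splicing list, and the large U2AF subunit gene U2af50 had 135 and 134 RPKM. Upf1, the helicase of nonsense-mediated decay, had 35.7 and 42.9 RPKM. siRNA and miRNA machinery genes, among them Hen1 and Nbr of the piRNA list, passed in 10 of 12 cases, led by Dcr-2 (186 and 167 RPKM) and AGO2 (148 and 161 RPKM) of the siRNA pathway, while the miRNA dicer gene Dcr-1 had 12.4 and 13.4 RPKM.

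In several signalling pathways the receptor and its intracellular partners were present while some ligand genes were low. In the Hedgehog pathway 11 of 12 genes exceeded 10 RPKM in both libraries, against 65.8% of all genes. Among them were the ligand gene hh (26.9 and 18.0 RPKM), the transducer gene smo (15.3 and 16.7 RPKM) and the transcription factor gene ci (56.80 and 50.01 RPKM), beside the receptor and target gene ptc. In the JAK-STAT pathway 10 of 13 did, or 76.9%. Stat92E, its transcription factor, had 161 and 172 RPKM and the receptor gene dome had 34.1 and 44.5 RPKM, whereas the ligand genes upd3 (2.50 and 5.70 RPKM) and upd2 (1.07 and 2.08 RPKM) were low. In the Notch pathway 12 of 18 did, or 66.7%, near the 65.8% of all genes. The receptor gene N had 60.2 and 59.4 RPKM beside 0.543 and 1.28 RPKM for its ligand gene Dl. Of the Notch target genes, E(spl)m3-HLH had 120 and 104 RPKM, and E(spl)m7-HLH had 0.601 and 0.671 RPKM.

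Ligand genes of 1 pathway could also differ widely among themselves. Of 18 BMP and activin genes 12 passed, or 66.7%, near the 65.8% of all genes. The BMP ligand gene gbb had 79.6 and 55.4 RPKM, while dpp had 0.391 and 1.44 RPKM. Their receptor genes put (39.8 and 36.9 RPKM), sax (27.7 and 24.2 RPKM) and tkv (22.77 and 25.03 RPKM) and the transducer gene Mad (51.6 and 55.3 RPKM) were all present. In the Wnt list 15 of 20 passed, or 75%, with Wnt4 far above wg (0.761 and 1.47 RPKM). arm, the beta-catenin gene shared by Wnt signalling and adherens junctions, led that list with 242 and 208 RPKM. In the EGFR list 17 of 21 passed, or 81%. The ligand gene spi had 127 and 163 RPKM and the receptor gene Egfr 45.0 and 32.9 RPKM, and aos, the secreted inhibitor that is itself a pathway target, had 0.517 and 0.549 RPKM. The FGF ligand gene bnl had 83.2 and 97.8 RPKM beside 0.261 and 0.206 RPKM for its receptor gene btl.

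In the Hippo pathway, 14 of 19 genes passed, or 73.7%, against 65.8% of all genes. Its kinase genes hpo (41.2 and 36.3 RPKM) and wts (24.9 and 31.7 RPKM), the coactivator gene yki (43.9 and 46.3 RPKM) and its partner sd (42.9 and 44.4 RPKM) were present. The upstream cadherin genes ft (0.280 and 0.328 RPKM) and ds (0.0466 and 0.0268 RPKM) were not above 1 RPKM. Ecdysone genes passed in 9 of 18 cases, or 50%, below the 65.8% of all genes. The receptor pair EcR (25.5 and 24.1 RPKM) and usp (51.2 and 58.7 RPKM) and the steroid hydroxylase gene Cyp18a1 (55.5 and 52.9 RPKM) were present. Of the response genes, br had 25.2 and 31.8 RPKM and the nuclear receptor gene Hr39 had 58.3 and 59.8 RPKM, whereas Eip74EF (6.71 and 6.51 RPKM) and Eip78C (0.0169 and 0.0598 RPKM) were below the threshold. Insulin and TOR genes passed in 14 of 16 cases with a value, in a list of 23. Toll and Imd genes passed in 8 of 13 with a value, in a list of 20, or 61.5% and near the share of all genes. Of insulin-like peptide genes, Ilp6 alone had a value (24.3 and 29.9 RPKM).

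The cells carried an epithelial and dividing profile by the lists used. Of 29 epithelial adhesion and polarity genes, 27 exceeded 10 RPKM in both libraries, led by the adhesion protein gene Nrt (520 and 493 RPKM) and the sodium pump gene Atpalpha (386 and 472 RPKM). E-cadherin (shg) had 30.9 and 46.9 RPKM, and the apical determinant gene crb was low at 2.56 and 3.61 RPKM. Integrin and basement membrane genes passed in 11 of 22 cases, or 50%, below the 65.8% of all genes. LanB1 had 200 and 190 RPKM, LanA had 135 and 135 RPKM and the integrin gene mys had 133 and 159 RPKM. The collagen IV genes Cg25C (8.74 and 5.36 RPKM) and vkg (3.71 and 1.83 RPKM) were low, and trol, which encodes perlecan, was listed only as 22 isoforms of 59.7 to 85.9 RPKM in replicate 1 and 49.0 to 69.7 RPKM in replicate 2. Of 28 cell cycle genes, 25 passed, led by PCNA (267 and 246 RPKM) and polo (181 and 184 RPKM), and twe, the Cdc25 gene of meiosis, had 2.64 and 3.16 RPKM. Its mitotic relative stg had 109 and 148 RPKM.

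Of 22 listed sex determination and dosage compensation genes, 16 had a value and 15 of these passed, against 65.8% of all genes. Sxl, the switch gene of female development, had 73.5 and 69.5 RPKM and dsx had 99.8 and 97.2 RPKM. Gene levels do not show which sex-specific splice form was present. msl-2, the male dosage compensation gene that Sxl protein represses in females, was the member that missed the threshold, narrowly, with 9.96 and 9.68 RPKM. Heat shock genes passed in 12 of 16 cases, or 75%. The inducible Hsp70 copies were near 0, with 0.132 and 0.277 RPKM for Hsp70Ab, but these near-identical copies share reads and their levels are uncertain. Hsp26 had 244 and 309 RPKM and Hsp68 had 48.9 and 63.5 RPKM. Of 5 homeotic genes with a value, only the cofactor gene exd passed (102 and 94.5 RPKM). Antp had 2.83 and 3.45 RPKM.

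Introns were described by the retention index, computed for each library as the RPKM of the intron divided by that of its gene and given in percent. The gene table and the intron table allowed this for 28666 introns in 5210 genes with a mean above 10 RPKM, and 17823 of them, in 5015 genes, overlapped no other listed intron. Their median length was 66 nt, from 23 to 108407 nt. Each listed interval reached 35 nt into the exon on either side. Spacing of the values showed whole reads on scales of 28.8 and 30.4 M reads. Distinct intervals of this set held 233287 and 245855 reads, or 0.810% of the scale in each library. The most covered 100 introns took 40.5% and 43.4% of these reads. Intervals and index values are not independent replicates, and neither measures which share of molecules kept an intron, since a read in a long nuclear transcript counts as well.

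Most introns were short and held few reads. Introns were grouped by length, each group starting just above the bound that closes the one before. Those up to 70 nt were 58.1% of the set and held 5.34% and 4.95% of the reads. In 59.3% and 60.7% of them no read was found, so their median index was 0 in each library. The median was 0.35% and 0.33% at 70 to 500 nt, 0.88% and 0.83% at 500 to 2000 nt, 0.68% and 0.70% at 2000 to 10000 nt, and 0.53% and 0.50% above 10000 nt. The index was thus highest in the middle of the length range and lower again in the longest introns. Introns above 10000 nt were 1.39% of the set and held 26.3% and 26.7% of the reads.

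The low values of short introns partly rest on depth. In 6457 introns where an index of 1% would give at least 5 reads in the libraries together, the median was 0.18% and 0.15% up to 70 nt, 0.40% and 0.34% at 70 to 500 nt, and 0.87% and 0.83% at 500 to 2000 nt, and the order of the classes stayed. Summing reads before dividing gave the same order at the ends, with 0.58% and 0.57% up to 70 nt, 1.49% and 1.62% at 500 to 2000 nt and 0.92% and 0.89% above 10000 nt. The order turned when introns had to hold at least 10 reads in all, which keeps short introns only where they are high. The median was then 1.89 points lower at 500 to 2000 nt than up to 70 nt. The index also went with the level of the gene. In introns up to 70 nt, the summed index was 1.03% and 0.96% in genes of 10 to 30 RPKM and 0.25% and 0.28% in genes above 300 RPKM.

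By position, last introns had the higher index. Over all lengths the median was 0.50% and 0.42% in last introns (n = 3806) and 0 in each library in middle introns (n = 10241), with 0.13% and 0.17% in first introns (n = 2976) and 0.41% and 0.42% in the introns of genes with a single one (n = 800). Where depth sufficed, it was 0.47% and 0.43% in last, against 0.37% and 0.32% in middle introns. At 500 to 2000 nt, that comparison was 1.35% and 1.34% in last introns (n = 179) against 0.72% and 0.73% in middle introns (n = 691). At 2000 to 10000 nt it was 1.12% and 1.04% in last introns (n = 64) against 0.63% and 0.60% in middle introns (n = 411).

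Within genes the difference over all lengths was near 0. In 790 genes with both a last and a middle intron of sufficient depth, the last was higher in 400 in each library. It was lower in 363 and 350, and the median difference was 0.0042 and 0.0048 points. First introns were higher than middle introns of the same gene in 311 and 316 of 707 genes and lower in 366 and 356. Up to 70 nt, first introns were higher in 19 and 15 of 74 genes and lower in 46 and 44. Their median difference there was -0.134 and -0.116 points. Within the class up to 70 nt, the last intron was higher in 137 and 134 of 271 genes, or 50.6% and 49.4%. It was lower in 103 and 99 and equal in the rest, with a median difference of 0.0024 and 0 points. Within the 70 to 500 nt class, the last intron was higher in 59.3% and 55.2% of 194 genes and lower in 74 and 80 genes. The median difference was 0.082 and 0.083 points. At 500 to 2000 nt it was higher in 24 and 25 of 43 genes, with a median difference of 0.242 and 0.401 points. The genes with both kinds of intron are not all the genes behind the medians of the classes, and the part of gene choice in the difference between them was not tested.

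**Figure D3:**
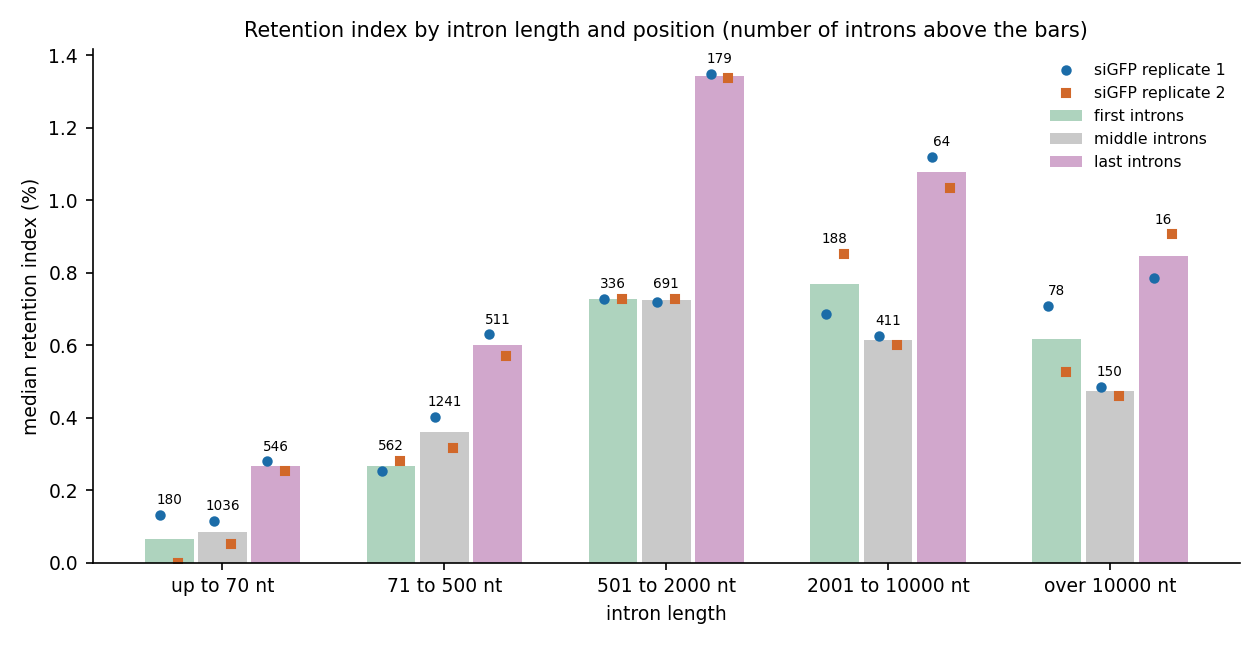
Median retention index (y axis, percent) of introns with sufficient depth by intron length (x axis, nt) for first, middle and last introns, with bars for the mean of the libraries and a point for each library. Last introns lie above middle introns in every length class, as at 500 to 2000 nt with 1.35% and 1.34% against 0.72% and 0.73%.

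Introns of chromosome 4, the small and largely heterochromatic chromosome, held more signal. The median index was 1.01% and 1.16% in 261 introns of 43 genes on chromosome 4, against 0.13% and 0.08% in 17451 introns of 2L, 2R, 3L, 3R and X. The 111 introns on unplaced and heterochromatic sequence, left out of that comparison, had 0.67% and 0.76%, so a higher median was not particular to chromosome 4. Summed before dividing, it was 3.36% and 3.96% on chromosome 4 and 1.03% and 1.04% on the other arms. The gap was present in each length class, the longest of which holds only 1 intron on chromosome 4, at 0.58% and 0.61% against 0 in each library up to 70 nt, and at 2.704% and 1.998% against 0.82% and 0.77% at 500 to 2000 nt. Of the 43 genes, 37 had an intron with a mean index above 1% and 13 had one above 10%. That count depends on how many introns a gene has. It is not given for the 4941 genes of the other arms, so it shows no difference by itself. By intron, 50.6% and 52.9% exceeded 1% on chromosome 4, against 28.6% and 27.3% on the other arms. Above 10% were 8.43% and 6.897%, against 1.79% and 1.73%.

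Transposable element copies were also more frequent there. The annotation placed such a copy in 23.2% of chromosome 4 introns, against 0.858% to 2.31% of introns on 2L, 2R, 3L, 3R and X. Among introns with no annotated exon or element inside, the median at 500 to 2000 nt was still 2.40% and 2.23% on chromosome 4 (n = 22), against 0.91% and 0.86% on the other arms (n = 828). At 2000 to 10000 nt a single such intron on chromosome 4 had 0.80% and 0.45%, against 0.71% and 0.73% on the other arms (n = 373). Over all arms, introns with an element and no exon had a median of 0.89% and 0.86% (n = 247), against 0.22% and 0.17% in introns without either (n = 13757). The former were far longer, with a median length of 2795 nt against 66 nt. Introns without either had 0.92% and 0.91% at 500 to 2000 nt and 0.74% and 0.76% at 2000 to 10000 nt. The part of length in the difference was not tested.

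Introns with strong signal were few. Of the 17823 introns, 231 (1.30%) exceeded 10% in both libraries, and of the 683 with at least 50 reads in each library, 118 did. Among these 683, the index of the libraries correlated at r = 0.976 on the log2 scale, across introns, and 26 differed by more than 2-fold. The annotation had neither an exon nor an element in 82 of the 118, and in 13757 of all 17823 introns. So this class was not particular to introns with strong signal.

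Among those 683, the highest mean index belonged to intron 1 of nAChRbeta2 (225 nt, dm3 3R:20340410-20340634), an acetylcholine receptor subunit gene, with 176 and 254 reads and an index of 152% and 229%. A value above 100% means that the interval was covered more densely than the gene. Intron 2 of Caps (1168 nt, 4:1237237-1238404), which holds an INE-1 copy on each strand, had 157% and 119%. Intron 1 of CG10359 (582 nt, 3L:3612493-3613074) had 84.2% and 170%, and intron 2 of the same gene had 46.4% and 105%. Its libraries differed widely, with 139 and 600 reads in intron 1. Intron 3 of unc-13 (69 nt, 4:928177-928245), in a gene for a synaptic vesicle priming protein, had 99.6% and 133%, and the annotation places an exon of CR43361 on its opposite strand.

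The rest of the highest 12 had mean values down to 63.4%. Intron 4 of Kif3C (298 nt, 4:1186994-1187291), in a kinesin gene, had 1253 and 928 reads and an index of 80.1% and 69.3%. Intron 2 of the transcription factor gene Cf2 (742 nt, 2L:4880473-4881214) had 64.6% and 84.1%. The only intron of ver (356 nt, 3L:12517171-12517526), which encodes a telomere capping protein, had 56.7% and 75.7%, and that of the syntaxin gene Syx1A (1525 nt, 3R:19927769-19929293) had 77.9% and 60.8% with an annotated exon of Syx1A inside. Intron 4 of CG11456 (340 nt, 3L:20836687-20837026) had 97.2% and 136%, intron 1 of CG31301 (110 nt, 3R:11172406-11172515) had 74.4% and 122%, and intron 3 of the semaphorin receptor gene plexA (755 nt, 4:1036247-1037001) had 46.3% and 80.6%. Of the 12, 4 lie on chromosome 4.

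The introns of piwi were uneven among themselves. Intron 4 (604 nt, 2L:10984342-10984945) led in each library, with 712 and 721 reads and an index of 6.002% and 7.889%. The annotation places a Cr1a copy on its own strand and an INE-1 copy on the opposite strand inside it. The other introns of the gene with similar signal were intron 2 (56 nt) at 3.81% and 4.12%, intron 1 (1120 nt, with an INE-1 copy on the opposite strand) at 3.40% and 3.68%, and intron 6 (119 nt) at 3.14% and 2.35%. Intron 3 (66 nt) had 2.10% and 1.85%, and intron 5 (53 nt) had 0.93% and 0.84%. The last, intron 7 (125 nt), had only 3 and 1 reads and an index of 0.088% and 0.038%. All but intron 7 lay above the median index of every length class in each library.

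The other marker genes had less intron signal. In armi the highest was intron 7 (56 nt, 3L:3465853-3465908) with 23 and 29 reads and 1.30% and 2.04%. In Fas3 the first intron (62671 nt, 2L:18320731-18383401) had 137 and 132 reads over its whole length and 0.105% and 0.091%. The highest Fas3 intron was 1064 nt long (2L:18387318-18388381), 1 of several overlapping forms near the end of the gene, with 124 and 139 reads and 5.29% in each library. That was above every piwi intron but intron 4. tj had no listed intron.

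**Figure D4:**
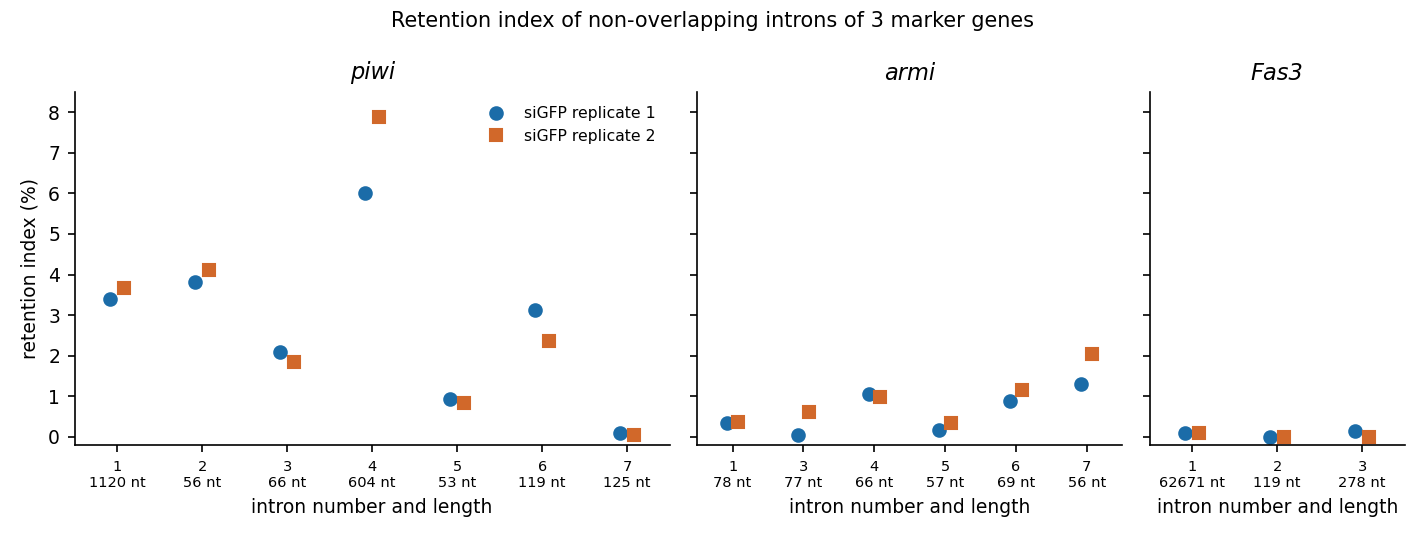
Retention index (y axis, percent) of each intron of piwi, armi and Fas3 that overlaps no other, in order of transcription (x axis, number and length), with a point for each siGFP library. piwi intron 4 stands highest at 6.002% and 7.889%, and the last piwi intron is near 0.

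The longest introns differed in their index. Of the listed introns the 5 longest were those of CG17684 (142627 nt), bru-3 (139347 nt), kirre (133764 and 132044 nt) and pum (132737 nt), and each overlapped others. pum, which encodes an RNA-binding translational repressor, had 765 and 766 reads there and an index of 0.72% and 0.57%. The intron of CG17684, a host of 8.66 and 9.05 RPKM, had 1.26% and 1.46%, and that of bru-3 had 1.93% and 0.96%. Of the kirre introns, the longer had 1.74% and 1.70% and the shorter 0.69% and 0.53%. The hosts bru-3 (0.116 and 0.272 RPKM) and kirre (0.537 and 0.609 RPKM) were themselves below 1 RPKM. Among non-overlapping introns the longest was intron 2 of luna (108407 nt, 2R:6878630-6987036), in a Kruppel-like factor gene, with 2091 and 2587 reads and 4.36% and 4.90%. It was followed by introns of mgl (0.86% and 0.51%), Flo2 (0.47% and 0.25%), mbl (1.46% and 1.13%) and Hs6st (0.44% and 0.45%), so luna stood apart from the introns nearest to it in length. The annotation places jockey and roo copies on the strand of luna in its intron, and a jockey copy on the strand of mbl in that of mbl. The part of these copies in the index was not tested.

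At the low end, some introns had no read despite ample depth. Of 1283 introns where an index of 1% would give at least 50 reads, 51 had no read in either library. They were 12 of 63 up to 70 nt, 13 of 207 at 70 to 500 nt, 9 of 266 at 500 to 2000 nt, 13 of 500 at 2000 to 10000 nt and 4 of 247 above that. An exon of the same gene is annotated inside 29 of the 51, a class that makes up 102 of the 1283, and 13 of 690 introns without an exon or element inside were empty. Whether reads aligned to transcripts were taken out before introns were counted is not given in the sources used here, so a 0 may not mean that no read came from the interval. Intron 2 of 14-3-3epsilon (68 nt, 3R:14073625-14073692) was 1 of them, and a count of 0 in replicate 1 allows an index of up to 0.061% there. Such limits cover counting error only. Con, an adhesion protein gene, had no read in a first intron of 12878 nt (3L:5065419-5078296), where the limit was 0.030%.

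Most genes that lie inside an intron of another gene carried few of their reads into the intron values. In 121 such pairs with the inner gene above 20 RPKM, reads listed for the intron came to a median of 0.85% and 1.36% of the reads that the inner gene must have had, and in 104 pairs to less than 10% in both libraries. In the 36 pairs on the same strand the median was 2.48% and 2.67%, and 28 were below 10% in both libraries. For the 85 pairs on opposite strands it was 0.55% and 0.78%, and 76 were below 10% in both. RpS6, in an intron of CR33222 on the same strand, corresponds to about 72428 and 53532 reads, and that intron had 93 and 72. RpL41 lies in an intron of the sodium channel gene NaCP60E on the other strand, and that intron had 9 and 6 reads. At 2000 to 10000 nt, the median index of introns with a whole gene inside was 0.62% and 0.67% on the same strand (n = 37) and 0.52% and 0.59% on the opposite strand (n = 86), against 0.71% and 0.75% without one (n = 553).

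Transposable element copies behaved otherwise. Families were taken up because introns with a copy, in genes without a value or below 1 RPKM, held at least 1000 reads in the libraries together in at least 3 cases and in most cases, so high counts are part of their choice. Introns that hold a copia copy on their own strand had 1965 to 2882 reads in replicate 1 and 4214 to 6013 in replicate 2 at all 8 places, whatever the level of the gene. The adenylate cyclase gene rut (0.842 and 1.09 RPKM) had 2475 and 5219 such reads, and Tg, the transglutaminase gene (0.315 and 0.555 RPKM), had 2477 and 5225. mbl, a splicing factor gene of 31.2 and 34.6 RPKM, had 2882 and 6013. Introns of 2mit, para and Neto with an mdg3 copy on the same strand had 3812 and 12468, 3810 and 12468, and 3814 and 12470 reads. The mdg3 copy in CG44102 was an exception, with 6 reads in each library. Introns with a 17.6 copy on the opposite strand had 532 and 668 reads in CG43366, 532 and 669 in dpr6, and 571 and 705 in sqa, and 42 to 2051 and 62 to 2448 over 7 places. Read counts that match across chromosomes to within 0.3% were found for rut with Tg and among para, 2mit and Neto, in a search of 305 introns with at least 2000 reads in the libraries together. Reads of different copies of a family cannot be told apart in these counts. In replicate 2 the copia and mdg3 counts were higher than in replicate 1 at all of these places but CG44102.

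**Figure D5:**
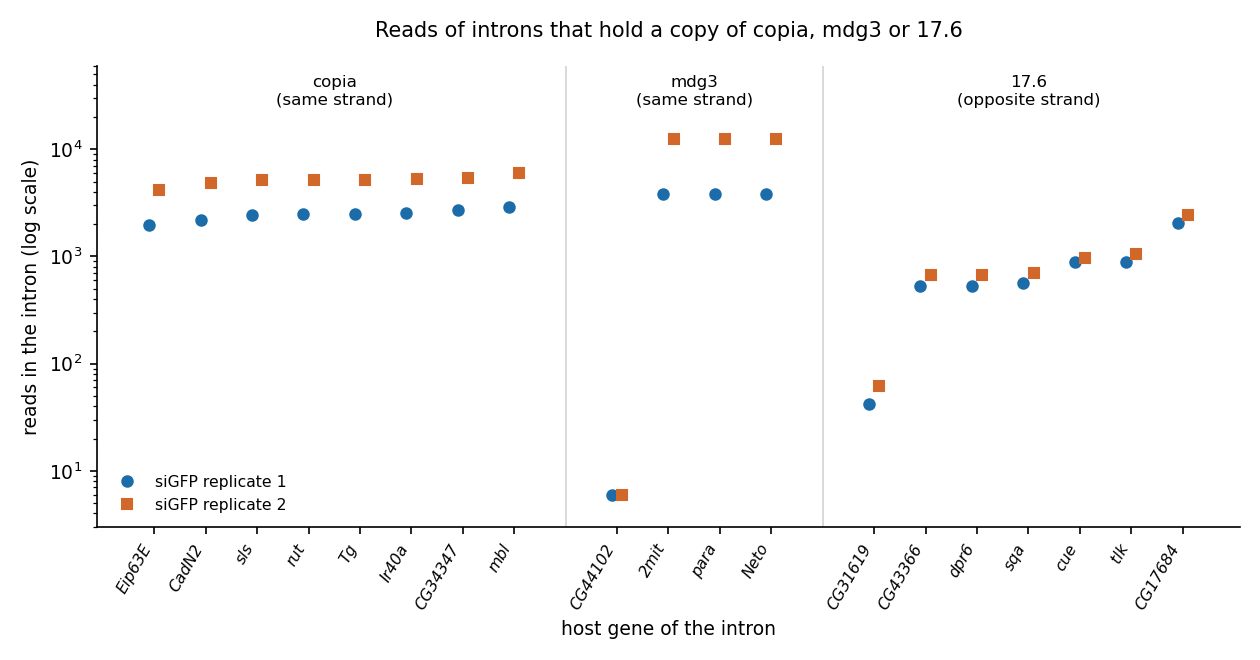
Reads in the intron (y axis, log scale) for introns that hold a copia, mdg3 or 17.6 copy (x axis, host gene), with a point for each siGFP library. The 8 copia introns lie between 1965 and 2882 reads in replicate 1, and 3 of the 4 mdg3 introns share nearly the same count.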

How the data were processed

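OSC polyA libraries of the siGFP group were taken from the tables of the whole series, by the column names that match the sample titles. The authors deposited RPKM per gene (8335 genes) and per intron (60779 introns, dm3 coordinates). The methods say that reads had to align uniquely, but introns with copies of an element share nearly equal counts across chromosomes, and how reads of several places were counted there is not given in the sources used here. Bowtie and GSNAP, given without versions, and the build dm3 come from the processing notes of the submitters. Whether counting used strand is not given in the sources used here. The 4 of 6 columns of other siRNAs were not used. Each intron RPKM times its interval gives whole reads within 0.1, and 99.6% of lengths match a BDGP6 intron once 35 nt are taken off each side, so coordinates here are without those flanks. BDGP6 was used only for lengths and for what lies in an intron of the same gene and length. No coordinates were converted.

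Levels are means ± SD over 2 libraries. Nothing says that the replicates were separate cultures beyond the design's word for biological duplicates. A gene counts as passing above 10 RPKM in both libraries. Counts of passing list members are out of the members with a value. Genes at 0 were not listed. Named were the 30 highest genes, the markers, of each list some of up to 6 highest and 4 lowest members, all piwi introns, the 12 highest of at least 50 reads per library, the 5 longest, and the highest of armi and Fas3. Other genes and introns, among them members between these ends, were named after their values were seen. The members and lists were chosen with earlier results of these data known. Computation ran in Python 3.11.15 with pandas 2.3.3, numpy 2.4.6 and scipy 1.17.1, and plots in matplotlib 3.10.9. The index was checked on simulated data. A result withheld for evaluation is not reported here.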

Additional observations from a re-analysis of the deposited data

How the results depend on the processing

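No paired analysis was possible because there is 1 group and no test. Median index at 500 to 2000 nt minus that up to 70 nt was 0.854 points. It was 1.83 with all listed introns, 0.575 and 0.893 with genes above 50 and above 1 RPKM, 0.603 with 0.1 RPKM added, and -1.89 with introns of at least 10 reads, where the order turned. Alternatives added after seeing the data gave 0.688 (at least 5 reads expected at 1%), 0.914 (no annotated exon) and 0.914 (length without flanks). For last minus middle introns, 0.462 points became 0.168 and 0.312 (genes above 50 and above 1 RPKM), 0.192 (0.1 RPKM added), 0.103 (at least 5 reads expected) and 0.822 (without flanks). Leaving out 1 library gave 0.828 to 0.879 points for length, 0.421 to 0.503 for position and 0.881 to 1.08 for chromosome 4 minus the other arms (0.983). Of the 30 highest genes, 23 and 25 were kept with 1 library left out and 29 with libraries scaled to the same sum. Counts of single lists stayed within 1.5 times in 165 cases and moved further in 15, and medians of single classes stayed within 1 SD in 54 cases and moved further in 62. Of 2 libraries, either one lies within 1 SD of their mean by arithmetic. The class medians with 1 library left out, counted among the 54, thus could not move and say nothing about stability. Ribosomal protein genes took 23.2% to 29.9%. The 390 distinct list members above 10 RPKM in both libraries became 456 at 1 RPKM and 314 at 20 RPKM. The comparison by pyrimidine tract was not run, since no genome sequence was used here. RPKM of genes keep no depth, 2 libraries give a rough SD, and 17222 introns of genes without a value have no index.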

Other observations

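Introns of genes without a value, or with a mean below 1 RPKM, could also hold many reads. Of 21333 such introns that the annotation placed, 36 had at least 1000 reads in the libraries together. Of these 36, 16 hold a transposable element, 9 of them on the same strand. Of all 21333, 20689 hold no element and 377 hold one on the same strand. The 36 are not all separate places or introns of silent genes. Several are overlapping forms in trol, which was listed only as 22 isoforms of 59.7 to 85.9 RPKM in replicate 1. Tg is also counted in overlapping forms. The last intron of CR42862 (344 nt, 3L:229245-229588) held 6153 and 7048 reads without an annotated element, and an exon of the same gene is annotated inside it. The 11 genes of the mitochondrial genome took 0.877% and 0.556% of the summed RPKM of these polyA libraries, and mt:CoI had 1843 RPKM in replicate 1 and 844 RPKM in replicate 2.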
